A study of Mus musculus with 13 samples.

Results

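Interferon-stimulated genes were examined in the liver of male BALB/c mice, an inbred laboratory strain, as a module of 38 genes taken from the known type I and type II interferon response. The module was found by gene symbol, and all 38 genes passed the filter on low counts, among 13545 genes tested of 53465 in the table. There were 6 WT and 7 *Nod2*-/- mice, with 1 RNA sequencing library for each mouse. Every mouse of both genotypes had been treated as a pup with the carcinogen DMBA and was labelled as kept on a high-fat diet (HFD) for 30 weeks, with the same figure given as its age. *Nod2* encodes a cytoplasmic sensor of bacterial peptidoglycan, and the mutant lacks it in all cells. Both strains were bred in the same room, without littermate controls, and no untreated or chow-fed livers are part of the comparison. The paper reported that *Nod2*-/- males under this treatment gained more weight and more often had liver tumors than WT males. By flow cytometry it also reported more neutrophils and inflammatory monocytes in their livers at its last time point. A difference between the genotypes here cannot be told apart from those traits. Reads had been counted per gene, and values are given as normalized counts, that is, counts brought to the average effective library size.

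Interferons are secreted when cells sense foreign nucleic acid or other microbial products. Type I and type III interferons act through JAK kinases to assemble a complex with STAT2 and IRF9 that binds the interferon-stimulated response element (ISRE), whereas interferon gamma acts mainly through the gamma-activated site (GAS). In the liver, hepatocytes, Kupffer cells and infiltrating leukocytes can all respond, so that bulk tissue reports their sum. A difference in bulk RNA cannot separate a change in the number of cells of a type from a change in RNA per cell.

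The promoters of the module carried the response element at many members. RefSeq promoters of build GRCm38.p6, each of 250 bases before and 50 after the start site, were matched by symbol for 29 of the 38 genes. The ISRE core was searched as GAAANNGAAA and the GAS core as TTCNNNGAA, on both strands, where N is any base and the motifs may overlap. The ISRE core was present in 19 of the 29 member promoters (65.5%) and in 3.99% of the promoters of 27025 genes. The GAS core was present in 9 member promoters (31.0%) and in 9.55% of the same set. By role, the ISRE core was found in all 6 promoters of the GBP and IRG GTPases and in 3 of 4 IFIT promoters, but among the 4 regulators only in that of *Stat2*. A match is a description of these letters and not a mapped binding site. The stretches below are shown because they hold the ISRE core and belong, in each of 4 roles, to the member most abundant per length among those with a match before the start site, and *Oas1a* and *Oas1g* were added after their values were seen because they had the lowest p-values. Each is 90 bases of GRCm38.p6 from RefSeq, 5′ to 3′ on the strand of the gene, with the matches to the ISRE core in capitals.
Bst2, minus strand, chr8:71537550-71537639: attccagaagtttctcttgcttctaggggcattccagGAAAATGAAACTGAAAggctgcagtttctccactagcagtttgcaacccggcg
Igtp, plus strand, chr11:58199466-58199555: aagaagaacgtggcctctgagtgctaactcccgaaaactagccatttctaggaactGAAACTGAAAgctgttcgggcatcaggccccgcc
Isg15, minus strand, chr4:156200841-156200930: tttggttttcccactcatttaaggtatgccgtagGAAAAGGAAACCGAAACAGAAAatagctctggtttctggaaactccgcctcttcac
Stat2, plus strand, chr10:128270248-128270337: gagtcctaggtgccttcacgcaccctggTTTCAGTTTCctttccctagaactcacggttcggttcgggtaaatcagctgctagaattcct
Oas1a, minus strand, chr5:120907526-120907615: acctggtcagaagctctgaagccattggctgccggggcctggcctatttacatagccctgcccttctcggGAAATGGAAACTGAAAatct
Oas1g, minus strand, chr5:120887614-120887703: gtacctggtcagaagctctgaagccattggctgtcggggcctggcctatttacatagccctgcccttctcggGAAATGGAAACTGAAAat

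*Isg15* held 3 overlapping matches, and *Bst2*, *Oas1a* and *Oas1g* held 2 each. The stretches of *Oas1a* and *Oas1g*, aligned on the first match, were identical at 87 of 88 bases. Their first matches began at -20 and -18 from the start site, nearer to it than the first matches of *Isg15* at -78, *Bst2* at -130 and *Stat2* at -222.

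**Figure D1:**
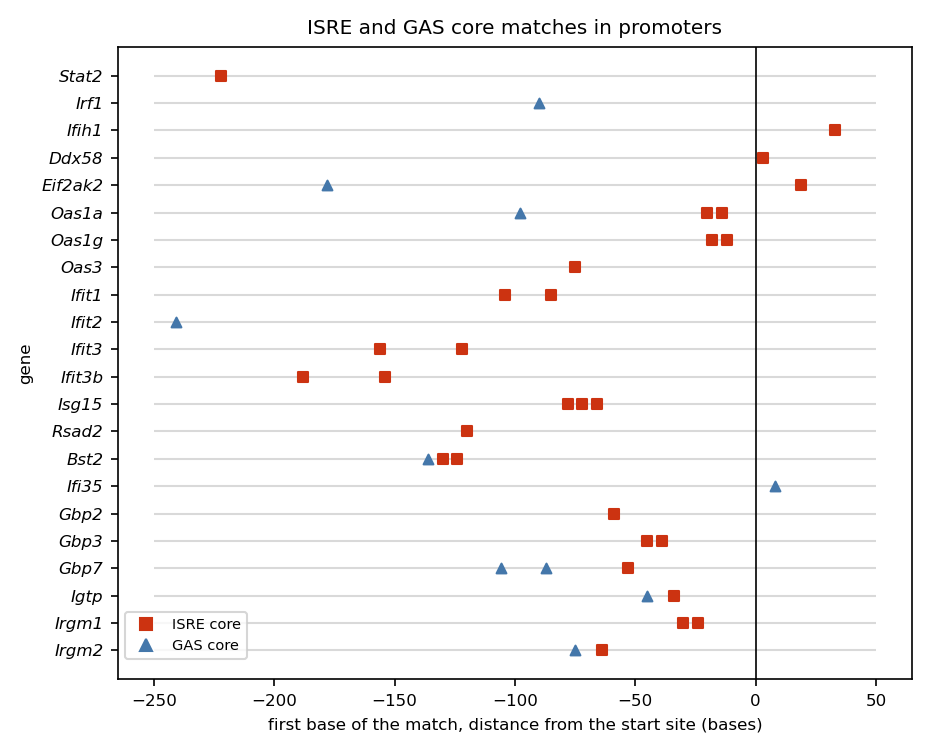
Matches to the ISRE core (red squares) and the GAS core (blue triangles) in the 22 member promoters that hold either, plotted as the distance of the first base from the start site in bases (vertical line), with each gene on its own row. Most ISRE matches lie before the start site, and those of *Ifih1*, *Ddx58* and *Eif2ak2* lie after it.

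The 13 libraries held 13824780 to 20579984 counts on genes, on average 16624999. The summed level of 8 hepatocyte markers (*Alb*, *Ttr* and others) was 86874 to 121841 CPM (counts scaled to a library of 1000000) in WT mice and 86092 to 172597 CPM in *Nod2*-/- mice. Of these 8 markers, 3 had log2 fold changes (*Nod2*-/- against WT) above 0 and 5 below, with a median of -0.30. The sum weighs abundant markers such as *Alb* most, so it does not show each marker. *Nod2* itself had at most 6 counts in any mouse of either genotype, so its level could not check the genotype labels. Lcn2 and other neutrophil markers stood far apart in *Nod2*-/- replicate 7, whose summed level of 14 markers was 4314 CPM, against a median of 182 CPM for its genotype.

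No member of the module passed a 5% false discovery rate (FDR) between *Nod2*-/- and WT mice in edgeR's quasi-likelihood test, in either direction. In the same fit 0.65% of all genes tested were higher in *Nod2*-/- mice and 0.509% were lower. At an unadjusted p under 0.05, 9 members (23.7%) had higher levels in *Nod2*-/- mice, against 12.9% of all genes, and 0 members had lower levels, against 10.2% of all genes. These 9 were *Oas1g*, *Oas1a*, *Ifi27*, *Parp14*, *Irf1*, *Stat2*, *Xaf1*, *Irf7* and *Ifi44*. Of the 38 log2 fold changes (*Nod2*-/- against WT), 28 were above 0 and 10 below, and their median was 0.19, with a median of 0.02 over all genes tested. Normalized counts of 1 member, *Oas1a*, did not overlap between the genotypes (2.63% of members), whereas 0.753% of all genes had higher and 0.687% had lower counts without overlap.

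Other analyses of the same counts called a few members. DESeq2 called 3 members higher in *Nod2*-/- mice (7.89%), *Oas1a*, *Oas1g* and *Ifi27*, where it called 4.38% of the genes it tested higher and 4.03% lower. The voomWithQualityWeights method of limma, which gives less weight to libraries that vary more, called 5 members higher (13.2%), *Oas1a*, *Oas1g*, *Xaf1*, *Ifi44* and *Parp14*, with 3.83% of all genes higher and 2.39% lower. When WT replicate 3 was left out of the edgeR fit, 6 members passed (15.8%), namely the same 5 genes and *Stat2* (edgeR adjusted p = 0.00653 to 0.046), where 5.12% of all genes were higher and 3.37% lower. WT replicate 3 was the highest WT mouse for all 6 of these genes, so leaving it out by itself widened their difference. Leaving out *Nod2*-/- replicate 1 called 1 member, *Oas1g*, and leaving out any other single mouse called 0. No member was called lower in any of these analyses.

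**Figure D2:**
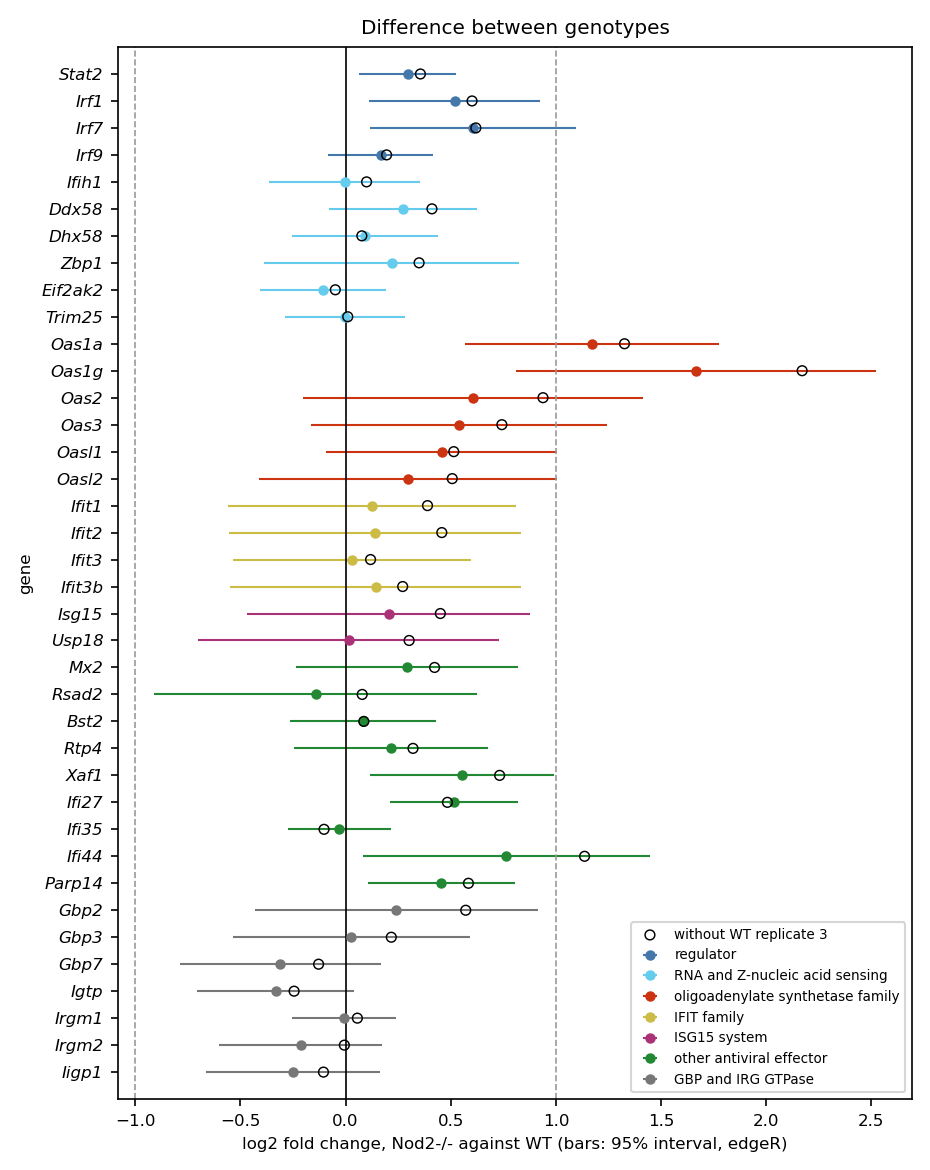
Log2 fold change of each of the 38 genes (x axis, *Nod2*-/- against WT) with its 95% interval from edgeR, coloured by role, and the value without WT replicate 3 as an open circle. Dashed lines mark a 2-fold change in either direction, and the intervals of *Oas1a* and *Oas1g* lie farthest to the right, from 0.57 to 1.77 and from 0.81 to 2.52.

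The intervals show how much of a difference these 13 livers could hide. For 30 of the 38 members, the 95% interval of the log2 fold change lay within a 2-fold change in both directions. The other 8 intervals reached a 2-fold higher level, and they belonged to *Irf7*, *Ifi44* and all 6 genes of the oligoadenylate synthetase family. No interval reached a 2-fold lower level. The median half-width of the members' intervals was 0.48 on the log2 scale, wider than the 0.32 over all genes tested.

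The 4 regulators are transcription factors that transmit the interferon signal, and their log2 fold changes were all above 0. *Stat2*, a part of the ISRE complex of the type I response, had normalized counts of 926, 1219 and 1569.8 (lowest, median, highest) in WT mice and of 1394, 1525 and 1722 in *Nod2*-/- mice. Of the WT mice, 4 lay below every *Nod2*-/- mouse, and WT replicate 3 was the highest. The log2 fold change of *Stat2* was 0.30 (SE 0.11, 95% interval 0.06 to 0.53, edgeR p = 0.0161, adjusted p = 0.132), and the two-sided exact permutation test over all splits of the mice gave p = 0.0175. *Irf1*, a factor induced mainly by interferon gamma, ranged over 248, 385 and 499 in WT mice and 359.6, 557 and 754 in *Nod2*-/- mice. Its highest value was in *Nod2*-/- replicate 7, and 5 of 7 *Nod2*-/- mice exceeded every WT mouse. Between genotypes, *Irf1* had a log2 fold change of 0.52 (SE 0.19, interval 0.11 to 0.92, edgeR adjusted p = 0.131, exact permutation p = 0.0338).

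*Irf7*, which drives interferon alpha genes once induced, had normalized counts of 369, 494 and 615 in WT mice and 504, 659 and 1451 in *Nod2*-/- mice. The value of 1451 was that of *Nod2*-/- replicate 6 alone, and the next mouse had 760.4. For *Irf7* the log2 fold change was 0.61 (SE 0.23, interval 0.12 to 1.09, edgeR adjusted p = 0.139, exact permutation p = 0.035), and without replicate 6 it fell to 0.35. *Irf9*, the DNA-binding part of the ISRE complex, had 457, 667 and 728 in WT mice and 599.6, 733 and 827 in *Nod2*-/- mice. The genotypes overlapped, and its log2 fold change was 0.17 (SE 0.12, interval -0.08 to 0.41, edgeR adjusted p = 0.401, exact permutation p = 0.174). *Irf9* shares its strand with the overlapping gene *Rnf31*, and *Irf7* overlaps *Phrf1* on the opposite strand, so reads in the shared parts are uncertain.

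The oligoadenylate synthetases make a second messenger that activates RNase L upon binding double-stranded RNA, and they held the largest differences of the module. *Oas1a* (ENSMUSG00000052776.10, chromosome 5, 120896256 to 120907521 of GRCm38, minus strand) had normalized counts of 41.0, 48.2, 122, 42.8, 117 and 102 in WT replicates 1 to 6. In *Nod2*-/- replicates 1 to 7 it had 141, 198, 136, 211, 135, 250.3 and 176. Every *Nod2*-/- mouse was above every WT mouse, with the closest values at 122 and 135. The log2 fold change of *Oas1a* was 1.17 (SE 0.28, interval 0.57 to 1.77, edgeR p = 0.000901, adjusted p = 0.0579), and the exact permutation test gave p = 0.000583, the smallest its 1716 splits allow.

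*Oas1g* (ENSMUSG00000066861.14, chromosome 5, 120876142 to 120887613, minus strand) was less abundant, with 14.4, 4.39, 58.7, 20.8, 24.3 and 18.8 normalized counts in WT replicates 1 to 6. In *Nod2*-/- replicates 1 to 7 it had 43.4, 83.3, 58.6, 114, 65.9, 78.5 and 86.2. Only WT replicate 3 reached into the *Nod2*-/- range, and the other 5 WT mice lay below all 7 mutants. For *Oas1g* this amounted to a log2 fold change of 1.66 (SE 0.40, interval 0.81 to 2.52, edgeR p = 0.000892, adjusted p = 0.0576, exact permutation p = 0.0035), and without WT replicate 3 it was 2.17 (adjusted p = 0.00653). *Oas1g* also passed without *Nod2*-/- replicate 1 (log2 fold change 1.76, edgeR adjusted p = 0.0483). The study's own list of changed immune genes, made from these same libraries, holds *Oas1a* and *Oas1g*, so their direction is not independent evidence. They are close paralogs, and reads that match both could have been counted on either.

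The remaining oligoadenylate synthetases had wider or smaller differences. *Oas2* had 13.2, 34.3 and 93.1 normalized counts in WT mice and 44.4, 66.8 and 106 in *Nod2*-/- mice, with overlap. WT replicates 3 and 4 were within the *Nod2*-/- range, while the other 4 WT mice lay below it, and the log2 fold change of *Oas2* was 0.61 (SE 0.38, interval -0.20 to 1.42, edgeR adjusted p = 0.349, exact permutation p = 0.142). *Oas3* (log2 fold change 0.54), and the related *Oasl1* (0.46) and *Oasl2* (0.30), had edgeR adjusted p-values of 0.338, 0.300 and 0.615. *Oas3* was the least abundant member per length, with an average of 0.187 CPM per kilobase of exon over all mice. The neighbours *Oas1b* and *Oas1c*, chosen after the values of *Oas1a* were seen, had log2 fold changes of 0.73 and 0.52 (edgeR adjusted p = 0.155 and 0.289). The median log2 fold change over the 6 synthetases was 0.57, and 0.84 without WT replicate 3.

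**Figure D3:**
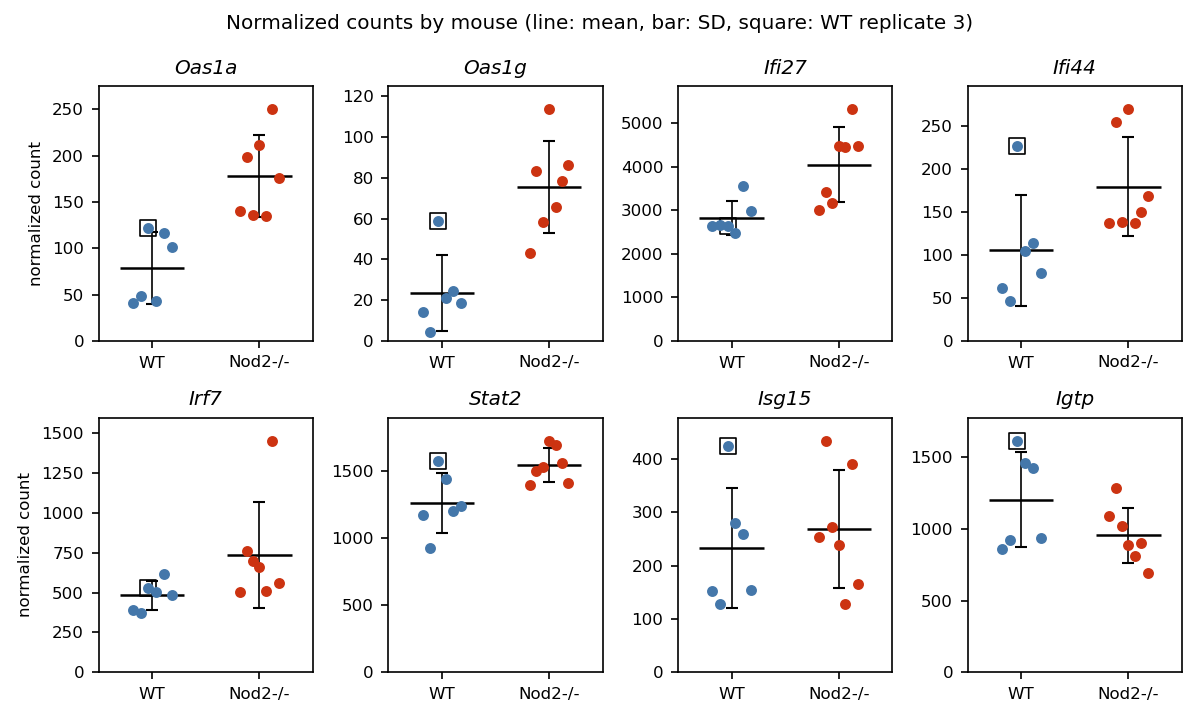
Normalized counts of 8 members in each mouse (y axis, linear from 0), with WT mice in blue, *Nod2*-/- mice in red, the mean as a line, the SD as a bar and WT replicate 3 in a square. *Oas1a* separates the genotypes, *Oas1g* does so but for WT replicate 3 at 58.7, *Irf7* has 1 mouse at 1451, and *Isg15* and *Igtp* overlap widely.

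Among the other antiviral effectors, 4 of 9 had an unadjusted p under 0.05 with higher levels in *Nod2*-/- mice, against 12.9% of all genes tested. None of the 9 passed 5% FDR in the fit of all mice. *Ifi27*, which encodes a small mitochondrial membrane protein and was the second most abundant member per length, had 2483, 2650.5 and 3551 normalized counts in WT mice and 3002, 4458 and 5318 in *Nod2*-/- mice. It was at 116 ± 16.1 CPM per kilobase (SD, n = 6) in WT mice and 166 ± 35.2 (SD, n = 7) in *Nod2*-/- mice, and 5 of 6 WT mice lay below every mutant. On the log2 scale the fold change of *Ifi27* was 0.52 (SE 0.14, interval 0.21 to 0.82, edgeR adjusted p = 0.0712, exact permutation p = 0.0122). Unlike the synthetases, *Ifi27* was not raised in WT replicate 3, which was at 0.994 times the median of the other WT mice, and the mouse above the mutant minimum was WT replicate 5.

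*Parp14*, an ADP-ribosyltransferase, had 411, 538 and 845 normalized counts in WT mice and 637, 773 and 942 in *Nod2*-/- mice. Its log2 fold change was 0.46 (SE 0.16, interval 0.11 to 0.80, edgeR adjusted p = 0.125, exact permutation p = 0.0233), and 4 WT mice lay below all mutants. *Xaf1*, a pro-apoptotic antagonist of XIAP, had 80.0, 96.5 and 176 in WT mice and 120.4, 159 and 213 in *Nod2*-/- mice, and 5 of 6 WT mice lay below the lowest mutant. Its log2 fold change was 0.55 (SE 0.20, interval 0.12 to 0.99, edgeR adjusted p = 0.132, exact permutation p = 0.0338). *Ifi44*, a GTP-binding antiviral protein, had 46.05, 91.4 and 227 in WT mice and 137, 150.2 and 269 in *Nod2*-/- mice. WT replicate 3, at 227, was the only WT mouse inside the *Nod2*-/- range. The log2 fold change of *Ifi44* was 0.76 (SE 0.32, interval 0.08 to 1.45, edgeR adjusted p = 0.173, exact permutation p = 0.0548) and 1.14 without that mouse (adjusted p = 0.0253).

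The other 5 effectors overlapped between genotypes and had edgeR adjusted p-values from 0.493 to 0.896. *Bst2*, the tetherin that holds budding virions at the membrane, was the most abundant member per length, with 209 ± 37.2 CPM per kilobase in WT mice and 222 ± 56.3 in *Nod2*-/- mice. Its log2 fold change was 0.08 (interval -0.26 to 0.43). *Rsad2* (viperin, which makes a chain-terminating nucleotide) had a log2 fold change of -0.14, *Mx2* (a dynamin-like GTPase) of 0.29, *Rtp4* of 0.21 and *Ifi35* of -0.03.

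The cytoplasmic sensors recognize viral RNA or Z-form nucleic acid, and none of the 6 had an unadjusted p under 0.05. *Ddx58*, which encodes RIG-I, had medians of 391 and 526 normalized counts in WT and *Nod2*-/- mice and a log2 fold change of 0.27 (interval -0.08 to 0.62, edgeR adjusted p = 0.332). *Ifih1*, which encodes MDA5, had medians of 629 and 662 and a log2 fold change of -0.01. The RIG-I regulators *Dhx58* (log2 fold change 0.09) and *Trim25* (-0.00), the Z-nucleic acid sensor *Zbp1* (0.22) and the kinase *Eif2ak2* (-0.11), which blocks translation, had intervals that all included 0.

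The IFIT proteins bind viral RNA, and *Isg15* encodes a ubiquitin-like modifier that *Usp18* removes. *Isg15* had 128, 207 and 424 normalized counts in WT mice and 128, 254 and 434 in *Nod2*-/- mice. Both ranges were nearly the same, with WT replicate 3 and *Nod2*-/- replicate 2 at the top, and the log2 fold change was 0.20 (SE 0.31, interval -0.47 to 0.88, edgeR adjusted p = 0.726, exact permutation p = 0.594). *Usp18* had a log2 fold change of 0.01. *Ifit1*, *Ifit2*, *Ifit3* and *Ifit3b* had log2 fold changes of 0.12, 0.14, 0.03 and 0.14, with edgeR adjusted p-values from 0.819 to 0.957. *Ifit3* and *Ifit3b* are near-identical neighbours, and the split of reads between them is uncertain.

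The guanylate-binding proteins and immunity-related GTPases disrupt the vacuoles of intracellular pathogens and are strongly induced by interferon gamma. Their median log2 fold change was -0.21, with 5 of 7 below 0, and none had an unadjusted p under 0.05. *Igtp* had 862, 1179 and 1614 normalized counts in WT mice and 695, 900.1 and 1282 in *Nod2*-/- mice, with a log2 fold change of -0.33 (SE 0.17, interval -0.70 to 0.04, edgeR adjusted p = 0.264, exact permutation p = 0.115). The genotypes overlapped, with WT replicates 3, 4 and 5 above all 7 mutants. *Gbp7* (-0.31), *Iigp1* (-0.25), *Irgm2* (-0.21) and *Irgm1* (-0.01) were also below 0, while *Gbp2* (0.24) and *Gbp3* (0.03) were not. Without WT replicate 3, the median over the 7 GTPases was -0.01. The records of *Igtp* (chromosome 11, 58199556 to 58207591) and *Irgm2* (58199618 to 58222782) overlap on the same strand, so their counts are not separate measurements.

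The spread between mice of the same genotype ran through the whole module. Among WT mice, replicate 3 ranked first for 27 of 38 members (71.1%) and for 28.0% of all genes tested. Its normalized count was 0.775 to 3.25 times the median of the other 5 WT mice, with a median ratio of 1.78 over the members and 1.01 over all genes. A ratio of at least 2-fold was reached by 15 members and by 6.94% of all genes tested. At the other end, WT replicate 1 or 2 was the lowest WT mouse for 30 members, compared with 32.6% of all genes. *Nod2*-/- replicate 2 was the highest mutant for 21 members and for 16.2% of all genes. *Nod2*-/- replicate 5 was the lowest mutant for 14 members and for 15.4% of all genes. Members share libraries, so these counts describe mice and are not 38 separate observations.

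The mice that were high differed somewhat by role. For the IFIT family, the mean difference from the WT mean in log2 CPM was 0.83 in WT replicate 3 and 1.03 in *Nod2*-/- replicate 2, but -0.32 in *Nod2*-/- replicate 5 and -0.30 in replicate 7. For the oligoadenylate synthetases, those same 2 mutants were at 0.75 and 1.12, and the lowest mutant was replicate 1 at 0.27. For the GBP and IRG GTPases, WT replicate 3 was at 0.73 and the mutants lay between -0.28 and 0.32. These role means are descriptions and were not tested against each other.

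**Figure D4:**
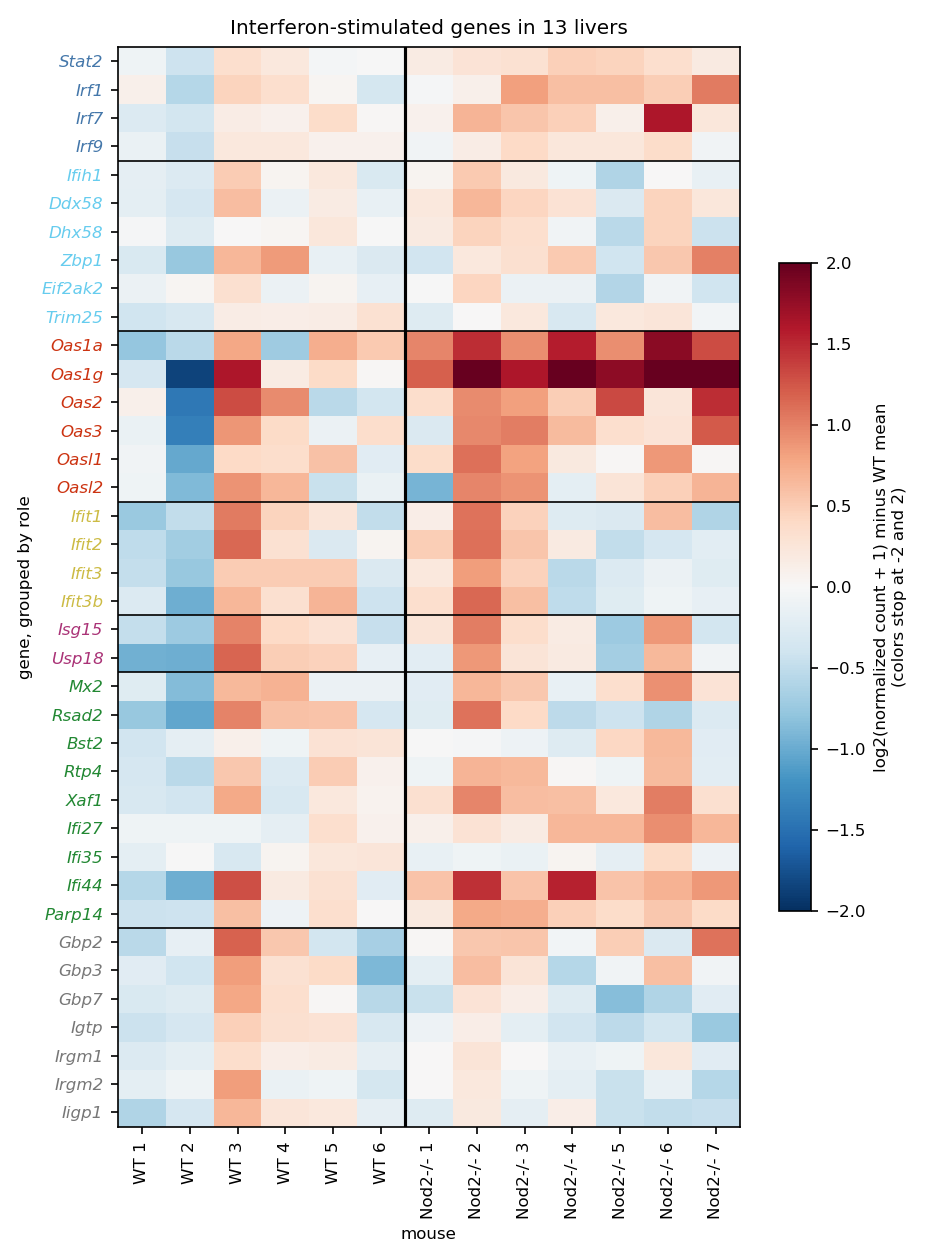
Each row is 1 of the 38 genes and each column 1 mouse; the colour is log2(normalized count + 1) minus the mean of the WT mice, from blue (lower) to red (higher), clipped at -2 and 2. WT replicate 3 is red in most rows, WT replicates 1 and 2 are blue in most rows, and the rows of *Oas1a* and *Oas1g* are red in all 7 *Nod2*-/- mice.

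Sums of immune cell markers were also highest in 1 of the WT mice, replicate 3, but only narrowly for Kupffer and T cells. This mouse ranked first among WT mice for 28.0% of all genes tested. Only 3 of 10 T cell, 2 of 10 NK cell, 6 of 14 neutrophil and 5 of 8 inflammatory monocyte markers passed the filter on low counts. WT replicate 3 had the highest WT sum of 10 Kupffer cell markers (320.1 CPM, against at most 303 in the other WT mice), of 8 inflammatory monocyte markers (2019 against 1671 CPM), of 14 neutrophil markers (135 against 64.0 CPM), of 10 T cell markers (6.21 against 5.93 CPM) and of 10 NK cell markers (4.41 against 2.45 CPM). It was lowest of the WT mice for the 8 lung epithelium markers, at 764 CPM in a WT range up to 1363 and a *Nod2*-/- range of 297 to 1169, of which *Cyp2f2*, also a liver gene, held most counts. In *Nod2*-/- mice the sums were 215 to 657 CPM for Kupffer cells, 1438 to 2902 for monocytes, 69.6 to 4314 for neutrophils, 3.77 to 12.1 for T cells and 1.72 to 6.80 for NK cells. For plasmacytoid dendritic cells, a major source of interferon alpha, the marker *Siglech* had no more than 8 counts in any mouse, and the sum of 8 markers (0.927 to 45.7 CPM in WT and 4.53 to 50.9 CPM in *Nod2*-/- mice) came mostly from *Ly6d*. Of the NK cell markers *Klra8* had 0 counts in every mouse, and no other marker list had a gene at 0 throughout. The part of these cells in the module's levels was not tested.

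Genes upstream of the module were examined from wider lists. All 21 interferon ligand genes were below the filter, 17 of them with 0 counts in every mouse and the rest with at most 2 counts in any mouse. *Ifnb1* had at most 1 count and *Ifng* at most 2, which is under the floor of 3 counts for a library, so a genotype difference in ligands was not detectable at this depth. Of 15 receptor and JAK-STAT genes, 14 were tested and none passed 5% FDR in the fit of all mice. An unadjusted p under 0.05 was found for 2 with higher and 1 with lower levels. Over all genes tested the shares were 12.9% higher and 10.2% lower, so these counts are near the background. *Il10rb*, a shared chain of the interferon lambda receptor, had 53.3, 78.7 and 105 normalized counts in WT mice and 106, 122 and 133 in *Nod2*-/- mice. These did not overlap, as for 0.753% of all genes tested with higher counts. Its log2 fold change was 0.62 (SE 0.15, edgeR adjusted p = 0.0612), and it passed with DESeq2 (adjusted p = 0.00747) and without WT replicate 3 (edgeR adjusted p = 0.0269). *Ifngr1* had a log2 fold change of 0.77 (SE 0.26, edgeR adjusted p = 0.113, and 0.0388 without WT replicate 3), *Ifngr2* of 0.19, *Ifnar1* of -0.18 (SE 0.075, adjusted p = 0.174) and *Ifnar2* of 0.14. Of 16 genes of upstream sensing, 14 were tested and none passed in that fit, the lowest p-values belonging to *Tmem173* (STING, log2 fold change 0.68, edgeR adjusted p = 0.0807), *Tlr3* (0.42, adjusted p = 0.124) and *Aim2* (0.80, adjusted p = 0.245). *Tmem173* passed with DESeq2 (adjusted p = 0.0299) and without WT replicate 3 (log2 fold change 0.79, edgeR adjusted p = 0.034). WT replicate 3 was the highest WT mouse for *Ifngr1* and *Tmem173*, so leaving it out by itself widened their difference, but it was not the highest for *Il10rb*.

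A second list of 64 interferon-stimulated genes outside the module was tested in the same fit. It too was chosen with earlier results of these data known, so its shares are not independent evidence. Of its 60 tested genes, 50 had log2 fold changes above 0, with a median of 0.33, and 21 (35%) had an unadjusted p under 0.05 with higher levels in *Nod2*-/- mice. Of all genes tested, 52.3% had log2 fold changes above 0, and 12.9% had such a p with higher levels. None of the 21 passed 5% FDR in the fit of all mice, whereas without WT replicate 3 the list had 7 higher calls (*Ifi27l2b*, *Tor3a*, *Ly6e*, *Gbp8*, *Tgtp1*, *Ifi203* and *Tap1*, edgeR adjusted p = 0.0217 to 0.0475), and DESeq2 made 3 (*Ifi27l2b*, *Tor3a* and *Psmb8*). WT replicate 3 was the highest WT mouse for all 7 genes called without it, so its omission by itself widened their difference. Over all genes, 5.12% were called higher without WT replicate 3, and DESeq2 called 4.38% of the genes it tested higher. The 3 calls of DESeq2 were near that share. The exception among the 60 was *Gbp11*, a guanylate-binding protein gene, which was lower in *Nod2*-/- mice. It had 1214, 2406 and 6780 normalized counts in WT mice and 250.3, 837 and 1253 in *Nod2*-/- mice, with WT and mutants barely overlapping at 1214 and 1253. The log2 fold change of *Gbp11* was -2.11 (SE 0.42, edgeR adjusted p = 0.0345, exact permutation p = 0.00117). This call was lost, with edgeR adjusted p-values of 0.0519 to 0.0799, when WT replicate 1, 2, 4 or 5 or *Nod2*-/- replicate 6 or 7 was left out. It belongs to a family of close paralogs, of which *Gbp10* had a log2 fold change of -1.09 and *Gbp8* of 1.04, neither past the threshold, and reads could be split among them. Without WT replicate 3, which had 457 normalized counts of *Gbp10* where the other WT mice had at most 171, *Gbp10* was at -0.45 (edgeR adjusted p = 0.623) and *Gbp8* passed as higher (edgeR adjusted p = 0.0463). *Mx1*, a GTPase gene, had 2.19, 10.2 and 25.3 normalized counts in WT mice and 14.8, 21.2 and 65.4 in *Nod2*-/- mice, with a log2 fold change of 1.11 (SE 0.49, edgeR adjusted p = 0.192). Whether its RNA gives a working protein in this strain was not tested.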

How the data were processed

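Liver RNA of 6 WT and 7 *Nod2*-/- mice was sequenced as strand-specific polyA libraries, and genotypes come from the sample labels. Before deposition the authors removed adapters and poor bases with Trimmomatic 0.33 and aligned the reads with TopHat2 2.1.1 to GRCm38 (GENCODE M16), and they deposited raw counts per gene and mouse. The counting program and its use of strand and of multiply mapping reads are not given in the sources used here, so overlapping and paralogous genes are uncertain. No per-sample column was left out, and 1 entry without a gene identifier was dropped. Every one of the 36 pairs of libraries within a genotype differed by more than sampling noise, with a chi-square of at least 10.7 for each degree of freedom.

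Positions are from GENCODE M21. Testing used edgeR 4.0.16 under R 4.3.3 (TMM, filterByExpr, glmQLFit and glmQLFTest, two-sided, no covariate), with Benjamini-Hochberg adjustment over all 13545 genes at 0.05. All adjusted p-values are edgeR's unless another tool is named. Exact permutation tests compared mean normalized counts over all 1716 splits of the 13 mice, two-sided and without adjustment over the 11 members given in full. Levels in CPM per kilobase use the exon length of each gene and edgeR's library sizes. Floors cover counting error only. The code was tested on simulated data.

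Members and lists were chosen with earlier results of these data known. Given in full were the 4 regulators, members past 5% FDR, members with an unadjusted p under 0.05 in order of p, up to 16, and the 4 members that varied most over the 13 mice. Genes of other lists were named if past 5% FDR, otherwise the 3 with the lowest p, with the main ligands, receptors and *Mx1* in any case. A result for 1 gene is not reported here. *Oas1b*, *Oas1c*, *Gbp8*, *Gbp10*, genes called only by an alternative and members shown for comparison were named after their values were seen. Alternatives were DESeq2 1.42.0, voomWithQualityWeights of limma 3.58.1, RLE normalization, no filter, at least 10 counts in every mouse, a replicate block and leaving out each mouse. Leaving out both WT replicate 3 and *Nod2*-/- replicate 7 was added after seeing the data.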

Additional observations from a re-analysis of the deposited data

Results flagged for a closer look

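In 3 of 22 groups of mice examined for the members given in full, 1 mouse stood far from the others by Dixon's criterion, and chance flags about 1 in 20 groups. *Irf7* had 1451 normalized counts in *Nod2*-/- replicate 6, with the next mutant at 760.4. *Oas1g* had 58.7 in WT replicate 3, with the next WT mouse at 24.3. *Ifi44* had 227 in WT replicate 3, with the next WT mouse at 114, and there the gap (0.625 of the range) was only just past the critical value.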

How the results depend on the processing

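The main test called 0 members higher, and the count was 3 with DESeq2, 5 with voomWithQualityWeights, 5 without both WT replicate 3 and *Nod2*-/- replicate 7 (chosen after seeing the data), and 0 to 6 when 1 mouse was left out. The highest count, 6, came without WT replicate 3, and leaving out *Nod2*-/- replicate 1 called 1 member, *Oas1g*. RLE normalization, no filter, at least 10 counts in every mouse and the replicate block called 0, and no alternative called a member lower. Over all genes, 157 calls in the main fit became 1209 with DESeq2, 843 with voomWithQualityWeights, 35 with the replicate block, 567 without both mice, and 41 to 1156 when 1 mouse was left out, the highest count again without WT replicate 3. Of 219 refitted log2 fold changes of the members given in full, all kept their direction, and 20 passed 5% FDR where the main fit did not. RLE normalization turned the sign of 0 of the 38 members. Same-numbered mice did not deviate together (correlations -0.302 to 0.304 over 6 pairs), so the numbers were not taken as pairs. *Gbp11* passed in the main fit but not in the replicate block (adjusted p = 0.135), nor when WT replicate 1, 2, 4 or 5 or *Nod2*-/- replicate 6 or 7 was left out (0.0519 to 0.0799).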

Other observations

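Genes of antigen processing, which interferon gamma also induces, were among the 21 genes of the second list with an unadjusted p under 0.05, and they were picked here after their values were seen. *Psmb8*, a catalytic subunit of the immunoproteasome, had 672, 793 and 1048 normalized counts in WT mice and 886, 1066 and 1461 in *Nod2*-/- mice, with a log2 fold change of 0.51 (SE 0.14, edgeR adjusted p = 0.074), and DESeq2 called it (adjusted p = 0.026). *Psmb9* had 0.45 (adjusted p = 0.132), and the peptide transporters *Tap1* and *Tap2* had 0.43 and 0.38 (adjusted p = 0.156 and 0.108), of which *Tap1* passed without WT replicate 3 (adjusted p = 0.0475). *Psmb10*, the other inducible subunit, had 0.23 (adjusted p = 0.247).

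*Ifi27l2b*, a neighbour of *Ifi27* on chromosome 12, had 54.8, 222 and 1014 normalized counts in WT mice and 513, 893 and 2696 in *Nod2*-/- mice, a larger log2 fold change (1.91, SE 0.62, edgeR adjusted p = 0.102) than the 0.52 of *Ifi27*. WT replicate 3 alone was at 1014 and the next WT mouse at 416; without it *Ifi27l2b* was at 2.65 (edgeR adjusted p = 0.0217), and DESeq2 called it with all mice (adjusted p = 0.0447). The difference between both genes was not tested.

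*Trex1* and *Gvin1*, which are interferon-stimulated genes of the second list, were listed at 0 in all 13 libraries. How reads of overlapping or paralogous genes were counted is not given, so these zeros do not show that the genes were silent.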
